A study of Mus musculus with 6 samples.

Results

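The NF-κB system is described here through 10 genes in mouse long-term haematopoietic stem cells (HSCs) sorted for high or low Asrij, the product of Ociad1. The genes were taken from the table by symbol, and all 10 were found among its 49997 rows. They comprise 5 subunit genes (Nfkb1, Nfkb2, Rel, Rela and Relb) and 5 inhibitor genes (Nfkbia, Nfkbib, Nfkbie, Nfkbiz and Tnfaip3). All 10 passed the filter on low counts, which left 21445 genes for testing. The Asrij high group and the Asrij low group each comprised 3 bulk RNA-seq libraries of long-term HSCs flow-sorted from the bone marrow of 4-month-old mice, and the labels give C57BL/6J under genotype for both groups. The name under which the counts were deposited includes ArjKI, which is not explained here. The labels do not state how Asrij was read in the sort, how pure the gates were, or whether each library of a group is from its own mouse. The p-values therefore rest on the spread between these samples, and that spread may be technical.

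NF-κB factors are dimers built from 5 related proteins that share a Rel homology domain, which binds DNA. In resting cells IκB proteins hold the dimers in the cytoplasm, and signals from TNF, interleukin-1 and Toll-like receptors activate a kinase, IKK, that marks IκB for destruction. In the alternative route the kinase NIK drives the processing of the Nfkb2 precursor p100 to p52, the partner of RelB. Several of the genes for subunits and inhibitors are themselves switched on by NF-κB, which gives the system negative feedback, and in HSCs the pathway is known for its part in inflammatory signalling and in stem cell maintenance.

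In RefSeq coordinates of GRCm38.p6 the subunit genes lie at chr3:135584655-135691969 (Nfkb1), chr19:46300994-46312400 (Nfkb2), chr11:23736847-23770969 (Rel), chr19:5637442-5648134 (Rela) and chr7:19606217-19629438 (Relb). The inhibitor genes lie at chr12:55489409-55492647 (Nfkbia), chr7:28758251-28766644 (Nfkbib), chr17:45555700-45563169 (Nfkbie), chr16:55811375-55838954 (Nfkbiz) and chr10:19000910-19015410 (Tnfaip3). The DNA before annotated transcript starts is shown because several of these genes are known NF-κB targets. RefSeq promoter windows (GRCm38.p6) were used for 7 of the 10 genes, and Nfkb1, Relb and Nfkbiz are not shown. In the 250 bases before each start, the κB consensus was searched on both strands. It was present before at least 1 start of 4 genes (Nfkb2, Rel, Nfkbia and Tnfaip3) and was not found in the windows of Rela, Nfkbib and Nfkbie. The form searched takes C or T at the sixth base. A form with A or T there, tried after the data were seen, also matched in Nfkbie, for 5 of the 7 genes and 3.9% of all windows. For comparison, the form searched was held by 5.0% of all 32851 windows and by 5.67% of the 27025 genes with a window. The first 4 sequences below run 5′ to 3′ on the strand of the gene and stop before the first base of the gene in RefSeq and GENCODE. The last 3 are 30-base stretches around a match. Capitals mark matches to the form searched on either strand, and a match in letters is not evidence of binding.
Nfkbia, chr12:55492648-55492897, minus strand: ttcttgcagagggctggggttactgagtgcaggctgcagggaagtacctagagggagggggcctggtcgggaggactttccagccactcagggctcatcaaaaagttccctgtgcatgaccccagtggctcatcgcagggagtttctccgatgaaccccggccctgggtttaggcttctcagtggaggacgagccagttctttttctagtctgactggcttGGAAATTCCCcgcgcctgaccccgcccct
Rel, chr11:23770971-23771219, minus strand: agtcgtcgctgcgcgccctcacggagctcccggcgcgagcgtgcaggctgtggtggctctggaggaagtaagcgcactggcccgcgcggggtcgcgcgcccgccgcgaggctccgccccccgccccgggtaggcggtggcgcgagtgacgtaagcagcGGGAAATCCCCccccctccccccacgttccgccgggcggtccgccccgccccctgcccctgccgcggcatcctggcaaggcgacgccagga
Nfkbie, chr17:45555450-45555699, plus strand: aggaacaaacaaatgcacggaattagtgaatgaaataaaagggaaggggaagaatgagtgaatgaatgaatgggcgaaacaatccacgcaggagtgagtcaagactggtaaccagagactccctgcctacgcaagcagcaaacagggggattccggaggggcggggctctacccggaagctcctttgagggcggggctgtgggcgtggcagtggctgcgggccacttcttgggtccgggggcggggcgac
Rela, chr19:5637291-5637441, plus strand: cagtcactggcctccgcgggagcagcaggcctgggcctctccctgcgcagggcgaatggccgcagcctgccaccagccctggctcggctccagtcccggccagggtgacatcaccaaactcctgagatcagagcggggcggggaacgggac
Nfkb2, first internal start, chr19:46304688-46304717, plus strand: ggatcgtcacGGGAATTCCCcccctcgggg
Nfkb2, last internal start, chr19:46305695-46305724, plus strand: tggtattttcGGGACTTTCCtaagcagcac
Tnfaip3, chr10:19015403-19015432, minus strand: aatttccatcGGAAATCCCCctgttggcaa

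The Nfkbia match ended 20 bases before the start and the Tnfaip3 match 3 bases before it. In Rel, 2 overlapping matches covered bases -92 to -82. The Nfkb2 windows lie inside the RefSeq gene, before internal transcript starts, and the first of them had a second match at bases -11 to -2. The share of G and C ran from 46.4% to 77.6% over the 10 windows of these genes, against a median of 52.4% over all windows.

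Of the 10 genes, 8 fell in Asrij high HSCs, 4 of the subunit genes and 4 of the inhibitor genes. Relb fell most, with Nfkbiz, Nfkbie, Rel, Tnfaip3 and Nfkbia also at least 2-fold lower (6 genes, against 14.7% of the genes tested), and Nfkb2 and Nfkb1 less so. Rela did not differ beyond its spread and Nfkbib was at a higher level without passing the test. Among all 21445 genes tested, 39.4% were called in either direction and 17.7% were called lower, a broad difference between the 2 populations. The share of the 10 genes that fell was above that of the table. The 10 genes were chosen with earlier results of these data known, so this comparison is a description and not a test. The median log2 fold change (Asrij high over Asrij low) was -1.23 over the 10 genes and -0.02 over all genes tested. In 8 of the 10 genes every Asrij high library lay below every Asrij low library, as did 24.8% of the genes tested, and 55% of the genes tested had no overlap in either direction. Unless stated otherwise, levels are counts scaled to library size (CPM) with TMM factors, given as mean ± SD with n = 3 libraries per group, and each adjusted p comes from the quasi-likelihood test of edgeR, with Benjamini-Hochberg adjustment across the genes tested and a threshold of 0.05. Since cells were measured in bulk, fewer cells of a type and less RNA per cell cannot be told apart.

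**Figure D1:**
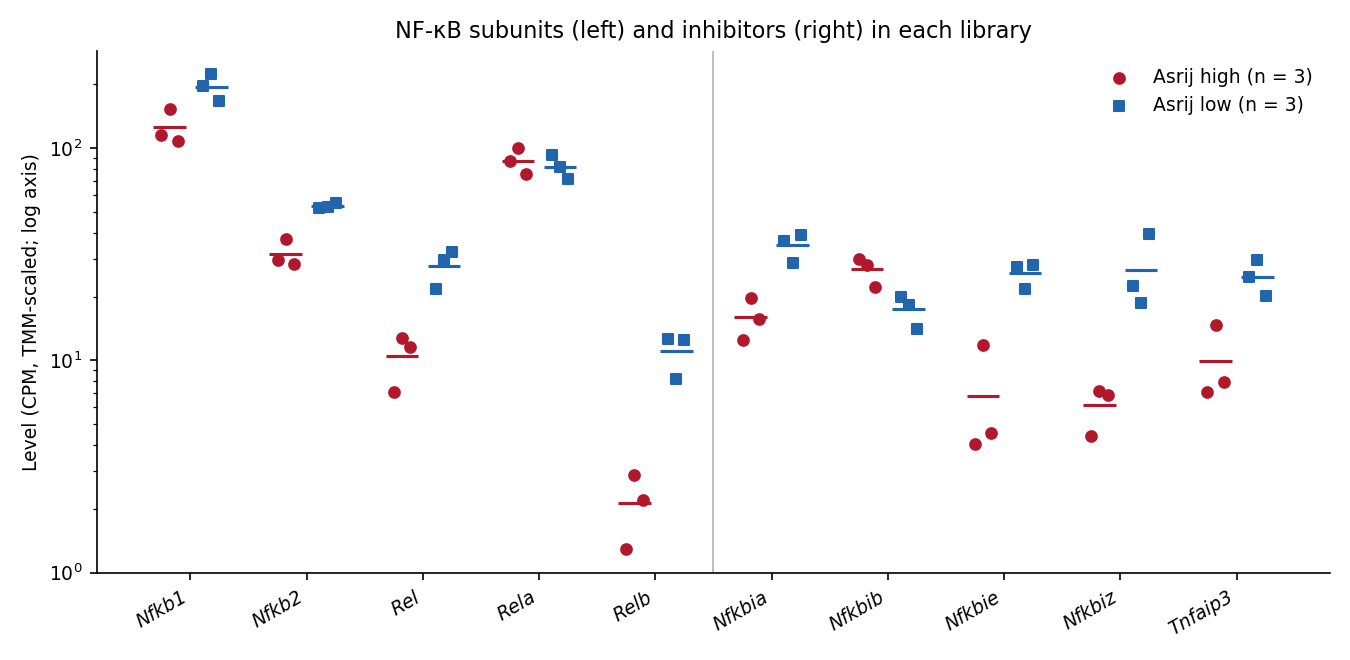
Level of each gene in each library in CPM on a log axis, with Asrij high libraries as circles, Asrij low libraries as squares and horizontal lines for group means (n = 3 each). The circles lie below the squares for 8 genes, overlap them for Rela and lie above them for Nfkbib.

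Libraries held 62732782 to 72855125 counts in Asrij high and 24707012 to 46240743 in Asrij low, and the 10 genes had between 70 and 10621 counts per library, so none of them was near the limit of detection. Ociad1, the gene of the sorted protein, was at 80.3 ± 5.76 CPM in the Asrij high libraries, against 51.6 ± 5.72 CPM in the Asrij low ones (log2 fold change 0.64 ± 0.16 SE, adjusted p = 0.0115), and it missed the threshold when Asrij high replicate 1 was left out (adjusted p = 0.0831), under library totals (log2 0.36, adjusted p = 0.133) and under upper quartile factors (log2 0.36, adjusted p = 0.0834). Genes that define long-term HSCs were present in all 6 libraries. Their summed level over 10 genes ran from 421 to 686 CPM in Asrij high and from 1247 to 1462 CPM in Asrij low, and 9 of the 10 fell. On the first principal component, Asrij high replicate 2 came closest of its group to the other population. The top 10 genes held 19.4% of the counts of Asrij low replicate 3, and 5.15% to 9.99% elsewhere.

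Relb encodes the subunit of the alternative route and needs p52 or p50 as its partner. It had 1.29, 2.87 and 2.20 CPM in the Asrij high libraries (replicates 1 to 3) and 12.6, 8.17 and 12.5 CPM in the Asrij low libraries. Every Asrij low library was above every Asrij high library by a wide margin. The log2 fold change was -2.38 ± 0.40 (SE, adjusted p = 0.0019), 5.21-fold lower in Asrij high.

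Rel encodes c-Rel, a subunit with a transactivation domain that is best known from lymphoid cells. Its levels were 7.13, 12.8 and 11.6 CPM in the Asrij high libraries, against 21.7, 29.7 and 32.5 CPM in the Asrij low ones. The groups did not overlap, and the fold change was -1.41 ± 0.28 (log2, SE) with an adjusted p = 0.00449.

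Nfkb2 encodes the p100 precursor, which also acts as an IκB for RelB until it is processed. It was at 29.8, 37.3 and 28.5 CPM in the Asrij high libraries, against 52.6, 52.7 and 55.5 CPM in the Asrij low ones. The Asrij low libraries were close together and all above the Asrij high ones (log2 -0.75 ± 0.18, adjusted p = 0.00902). Its exons share 531 bases with AC114539.1, a noncoding gene on the opposite strand whose symbol is not in the table. They also share 299 bases with Psd on the opposite strand. Psd had 2338 counts over the 6 libraries, against 11678 for Nfkb2, and its log2 fold change of -0.26 missed the threshold (adjusted p = 0.562).

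Nfkb1 encodes the p105 precursor of p50, the common partner of RelA and c-Rel. It had 116, 153 and 108 CPM in the Asrij high libraries, against 197, 223 and 167 CPM in the Asrij low ones. The groups did not overlap, but Asrij high replicate 2 came near Asrij low replicate 3. The fold change was the smallest among the genes that fell (log2 -0.64 ± 0.19, adjusted p = 0.0239). It missed the threshold when Asrij high replicate 1 was left out (adjusted p = 0.0586) or replicate 3 was (0.0637), and likewise for Asrij low replicate 1 (0.0793) or 2 (0.0768), with log2 values of -0.63, -0.59, -0.60 and -0.50.

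Rela encodes RelA (p65), the main activating subunit of the classical route. Its levels were 87.0, 99.8 and 75.7 CPM in the Asrij high libraries, against 92.5, 81.6 and 71.9 CPM in the Asrij low ones. The groups overlapped across nearly their whole range, and the log2 fold change of 0.09 ± 0.17 missed the threshold (adjusted p = 0.694). The sign of this small difference turned with the scaling, to -0.18 with library totals or upper quartile factors, which moved the median of all genes by -0.27.

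The proportions of the subunit genes within a library, which no scaling factor can alter, also stood apart, as a description without a test. With CPM divided by the length of the merged GENCODE exons, Rela made up 62.0%, 58.3% and 58.8% of the summed level of the 5 subunit genes in Asrij high, against 47.0%, 42.4% and 41.1% in Asrij low. The share of Relb was 0.724%, 1.33% and 1.35% in Asrij high and 5.05%, 3.36% and 5.63% in Asrij low. The share of Rel was 2.09%, 3.07% and 3.71% in Asrij high and 4.55%, 6.36% and 7.65% in Asrij low. The shares of Nfkb1 and Nfkb2 were also lower in Asrij high, and for none of the 5 genes did the shares overlap between the groups. These shares restate the levels above, so that of Rela is larger where the other subunit genes are lower.

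The order of the subunit genes per length was the same in both populations. In Asrij high the levels per kilobase were 28.5 ± 3.93 CPM for Rela, 10.4 ± 2.01 for Nfkb1, 6.95 ± 1.03 for Nfkb2, 1.41 ± 0.401 for Rel and 0.546 ± 0.205 for Relb. In Asrij low they were 26.7 ± 3.35 CPM for Rela, 16.2 ± 2.30 for Nfkb1, 11.7 ± 0.362 for Nfkb2, 3.75 ± 0.751 for Rel and 2.85 ± 0.646 for Relb. Rel and Relb overlapped in Asrij low, and no other neighbours in this order overlapped between libraries of a group. Which transcripts the cells use is not known from gene counts, so these levels depend on the exon lengths taken.

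**Figure D2:**
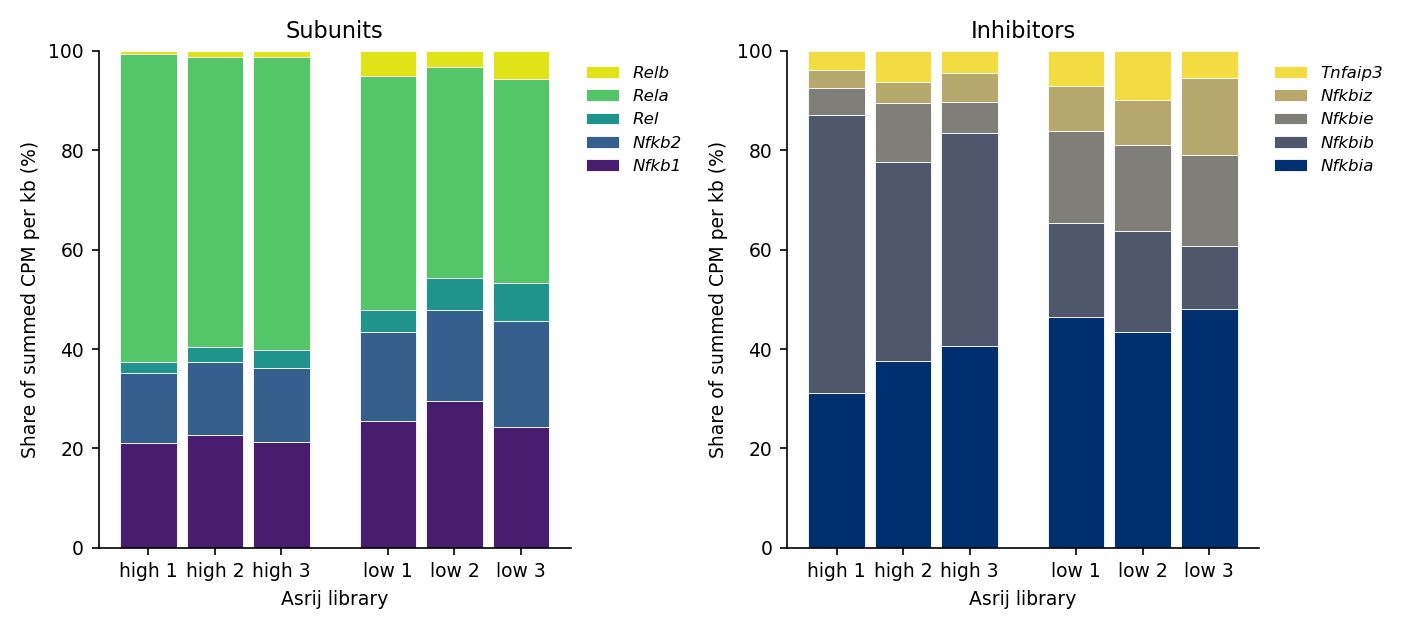
Share of each gene in the summed CPM per kilobase of the 5 subunit genes (left) and the 5 inhibitor genes (right) in each library, with the Asrij high libraries left of the Asrij low ones. Rela takes 58.3% to 62.0% of the subunit level in Asrij high and 41.1% to 47.0% in Asrij low, and Nfkbib takes 40.0% to 56.0% of the inhibitor level in Asrij high and 12.7% to 20.4% in Asrij low.

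Among the inhibitors, Nfkbia encodes IκBα, the quickly degraded and quickly remade inhibitor whose gene is a direct NF-κB target. It had 12.4, 19.7 and 15.7 CPM in the Asrij high libraries, against 36.6, 28.7 and 39.1 CPM in the Asrij low ones. The groups did not overlap (log2 -1.13 ± 0.24, adjusted p = 0.00556). The printed upstream stretch of this gene holds 1 κB match.

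Nfkbie encodes IκBε, an inhibitor of RelA and c-Rel dimers. Its levels were 4.04, 11.8 and 4.54 CPM in the Asrij high libraries, against 27.5, 21.6 and 28.3 CPM in the Asrij low ones. Asrij high replicate 2 stood above the other Asrij high libraries but below all Asrij low ones. The log2 fold change was -1.93 ± 0.41 (adjusted p = 0.00557), and without Asrij high replicate 2 it was -2.55 (adjusted p = 2.35e-04). The form searched had no match in the printed window of Nfkbie, and the form with A or T at the sixth base did. By the form searched, all 4 genes with a match fell, and 1 of the 3 without one, Nfkbie, as a description of 7 genes. Among all genes tested 17.7% were called lower. The share among all genes with a match was not computed, and a link between match and fall was not tested.

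Nfkbiz encodes IκBζ, an atypical nuclear family member that acts with p50 on a subset of secondary response genes and can activate as well as inhibit. It was at 4.41, 7.18 and 6.84 CPM in the Asrij high libraries, against 22.4, 18.6 and 39.4 CPM in the Asrij low ones. Asrij low replicate 3 was the highest, and the groups did not overlap (log2 -2.12 ± 0.34, adjusted p = 0.00171). Without that library the log2 fold change was -1.76 (adjusted p = 0.0061).

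Tnfaip3 encodes A20, an enzyme that edits ubiquitin chains on signalling proteins above IKK and thereby ends the response. Its levels were 7.09, 14.6 and 7.93 CPM in the Asrij high libraries, against 24.7, 29.7 and 20.1 CPM in the Asrij low ones. Again Asrij high replicate 2 was the highest of its group and the groups did not overlap (log2 -1.33 ± 0.32, adjusted p = 0.00974).

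Nfkbib encodes IκBβ, which is degraded and remade more slowly than IκBα. It had 30.1, 28.3 and 22.3 CPM in the Asrij high libraries, against 19.97, 18.22 and 14.01 CPM in the Asrij low ones. No Asrij low library reached the lowest Asrij high one, opposite to the other inhibitor genes. The difference did not pass the test over all genes (log2 0.63 ± 0.23, unadjusted p = 0.022, adjusted p = 0.0542). None of the 10 genes was called higher by edgeR after the filter on low counts, and 1 was higher at an unadjusted p under 0.05. Nfkbib was called higher by edgeR without that filter (adjusted p = 0.0366) and by DESeq2 (adjusted p = 0.0466). By limma-voom 0 of the 10 were called higher and 8 lower. Its exons share 42 bases with Sirt2 and 314 with Ccer2, both on the opposite strand. Sirt2 had more counts than Nfkbib and rose (log2 0.61, adjusted p = 0.045). Reads from the shared bases cannot be assigned to either gene without a known strand setting.

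The makeup of the inhibitor genes, which restates the levels above, also differed, again without a test. Nfkbib held 56.0%, 40.0% and 42.8% of their summed level per kilobase in Asrij high, against 18.8%, 20.4% and 12.7% in Asrij low. Nfkbie held 5.35%, 11.9% and 6.20% in Asrij high and 18.5%, 17.2% and 18.3% in Asrij low. In Asrij low, Nfkbia was the highest per kilobase at 21.6 ± 3.38 CPM, whereas in Asrij high Nfkbib had 12.4 ± 1.88 CPM per kilobase and Nfkbia 9.91 ± 2.25, which overlapped.

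**Figure D3:**
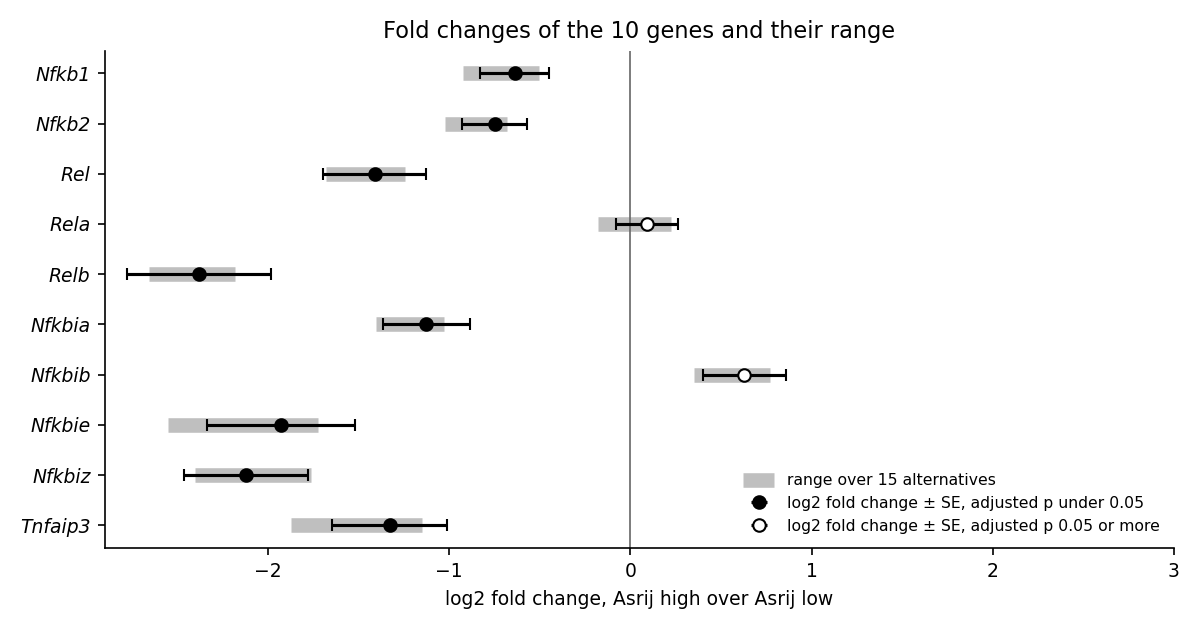
Log2 fold change of each gene, Asrij high over Asrij low, with its SE as whiskers and the range over the 15 alternative settings as a grey bar. Filled points had an adjusted p under 0.05. The values run from -2.38 for Relb to 0.63 for Nfkbib, and the grey bar of Rela alone crosses 0.

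Libraries within a group shared a pattern across these genes. In all 8 genes that fell, Asrij high replicate 2 was the highest Asrij high library, and in 6 of them replicate 1 was the lowest. Replicate 2 was the highest Asrij high library in 74.8% of all genes called lower and in 41.1% of all genes tested. The share of all genes with replicate 1 as the lowest was not computed. When Asrij high replicate 2 and Asrij low replicate 3 were dropped together, all 8 were called lower. Their log2 fold changes were -0.92 for Nfkb1, -0.87 for Nfkb2, -1.47 for Rel, -2.60 for Relb, -1.24 for Nfkbia, -2.54 for Nfkbie, -1.89 for Nfkbiz and -1.87 for Tnfaip3. Leaving out replicate 2 lowers the Asrij high mean of each of these genes, so this fit cannot check the falls.

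The rest of the pathway was read from 9 lists of genes by role, with 133 genes beside the 10 above. These lists too were chosen with earlier results of these data known. Of 118 that could be tested, 49 (41.5%) fell and 11 (9.32%) rose, against 17.7% and 21.7% of all genes tested, with a median log2 fold change of -0.54. The count that rose was 5 without Asrij high replicate 1, 5 without Asrij high replicate 3 and 7 without Asrij low replicate 1. Receptors, ligands and reported target genes had most of the falls, and the kinases and adaptors between them went both ways or did not pass the test.

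Of 19 receptor genes tested, 11 fell, with a median of -1.24. The TNF receptor genes Tnfrsf1a (log2 -1.24 ± 0.31, adjusted p = 0.0115) and Tnfrsf1b (-1.02 ± 0.20, adjusted p = 0.00377) fell, as did Tlr4, which encodes the lipopolysaccharide receptor (-1.54 ± 0.28, adjusted p = 0.00298). The BAFF receptor gene Tnfrsf13c, a gene of mature B cells, had 0.416 ± 0.126 CPM in the Asrij high libraries, against 5.06 ± 1.63 CPM in the Asrij low ones (-3.59 ± 0.51, adjusted p = 9.64e-04), and Tnfrsf13b fell by 1.35 on the log2 scale.

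Of 9 ligand genes tested, 5 fell, with a median of -1.29. Ltb, which encodes lymphotoxin beta, a ligand of the alternative route, had 3.47, 12.3 and 14.3 CPM in the Asrij high libraries, against 70.3, 71.7 and 100 CPM in the Asrij low ones (-3.01 ± 0.47, adjusted p = 0.00191). Il1b had 1.56, 2.06 and 1.41 CPM in the Asrij high libraries, against 15.4, 4.85 and 20.1 CPM in the Asrij low ones (-3.00 ± 0.51, adjusted p = 0.00212). Tnfsf12 (-1.80), Tnfsf14 (-1.29) and Il18 (-2.86) fell as well. Tnf itself had 1.65 ± 0.0721 CPM in the Asrij high libraries, against 3.74 ± 1.59 CPM in the Asrij low ones and did not pass the test (-1.18, adjusted p = 0.0668).

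Of 10 kinase and scaffold genes, 2 fell and 3 rose, with a median of -0.09. Map3k14, which encodes NIK, the kinase of the alternative route, had 2.44, 10.3 and 3.69 CPM in the Asrij high libraries, against 42.8, 26.7 and 32.4 CPM in the Asrij low ones (-2.63 ± 0.50, adjusted p = 0.00349). Without Asrij high replicate 2 its log2 fold change was -3.43. Chuk, which encodes the kinase IKKα that acts below NIK, rose to 48.4 ± 10.1 CPM in Asrij high, against 22.1 ± 2.60 CPM in Asrij low (1.13 ± 0.21, adjusted p = 0.00337). Ikbkb and Ikbkg, for the other kinase and the scaffold of IKK, had log2 values of -0.05 and -0.14 and did not pass the test (adjusted p = 0.833 and 0.485). Ikbke fell (-0.87, adjusted p = 0.0151) but was not called without Asrij high replicate 1 (0.0554). The TAK1 adaptor genes Tab3 (0.82, adjusted p = 0.0239) and Tab1 (0.62, adjusted p = 0.0245) rose. Tab3 was not called without Asrij high replicate 1 or 3 or Asrij low replicate 1 or 2 (adjusted p = 0.118, 0.139, 0.062 and 0.056), nor Tab1 without Asrij high replicate 1 or 3 or Asrij low replicate 3 (0.152, 0.0789 and 0.0802). Both also lost their calls under library totals (0.0956 and 0.213) and upper quartile factors (0.114 and 0.171).

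Of 21 adaptor and ubiquitin ligase genes, 4 fell, 2 rose and 15 did not pass the test, with a median of -0.03. The falls were those of Birc3 (-1.23 ± 0.19, adjusted p = 0.0015), which encodes a ubiquitin ligase and is an NF-κB target, Traf5 (-1.45), Peli1 (-0.78) and Traf1 (-2.38). Traf1 was at -3.37 without Asrij high replicate 2. The rises were those of Tank (0.85, adjusted p = 0.038) and Azi2 (0.53, adjusted p = 0.047), adaptors of the kinase TBK1. Tank was not called without Asrij high replicate 1 or 3 or Asrij low replicate 1 or 2 (adjusted p = 0.119, 0.139, 0.0772 and 0.0514), nor Azi2 without Asrij high replicate 1 or 3 or Asrij low replicate 1 or 3 (0.145, 0.217, 0.0693 and 0.138), and both lost their calls under library totals (0.105 and 0.342), upper quartile (0.132 and 0.26) and RLE factors (0.0526 and 0.0637) and with a filter of 1 CPM in 3 libraries (0.0641 and 0.0804). Azi2 also lost its call with DESeq2 (0.063) and with a replicate block (0.0807).

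Beside Tnfaip3, 6 of 11 genes of A20 partners, deubiquitinases and related inhibitors of the pathway fell, with a median of -0.55. Irak3, an inhibitor of Toll-like receptor signals, was among them (-1.23 ± 0.23, adjusted p = 0.00303), with Rnf11 (-0.95, adjusted p = 0.0114), Tnip1 (-0.60, adjusted p = 0.016) and Tnip2 (-0.82, adjusted p = 0.0212). Tnip1 was not called without Asrij high replicate 1 or 3 or Asrij low replicate 1 (adjusted p = 0.0579, 0.0526 and 0.0578), nor Tnip2 without Asrij high replicate 1 or 3 or Asrij low replicate 1 or 2 (0.0513, 0.0604, 0.0576 and 0.0726). Bcl3, for an atypical nuclear IκB, fell (-2.26 ± 0.51, adjusted p = 0.00764, and -2.92 without Asrij high replicate 2), and Nfkbid, for another, was at -0.77 and did not pass the test (adjusted p = 0.094).

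In the list of the antigen receptor complex, 4 of 8 genes fell, with a median of -0.65. The kinase gene Prkcq fell by 1.28 on the log2 scale (adjusted p = 0.00934). Malt1 (-0.65, adjusted p = 0.0378) and Card14 (-0.89, adjusted p = 0.0484) were not called when any 1 of Asrij high replicates 1 to 3 or Asrij low replicate 2 was left out, nor Malt1 without Asrij low replicate 3 or Card14 without Asrij low replicate 1 (adjusted p from 0.0538 to 0.117 and from 0.059 to 0.171). Without a filter on low counts neither was called (adjusted p = 0.0842 for Malt1 and 0.0686 for Card14).

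Of 29 tested genes reported to be induced by NF-κB, 17 fell and 2 rose, with a median of -1.32. Irf1, for an interferon response factor, had 29.8, 35.0 and 28.5 CPM in the Asrij high libraries, against 91.4, 86.2 and 92.6 CPM in the Asrij low ones (-1.54 ± 0.16, adjusted p = 3.09e-04). Csf1, for the macrophage growth factor, fell by 2.19 on the log2 scale (adjusted p = 0.00135). Sod2, for the mitochondrial superoxide dismutase, was at 136 ± 19.9 CPM in the Asrij high libraries, against 60.9 ± 11.3 CPM in the Asrij low ones (1.16 ± 0.19, adjusted p = 0.00182). Cd44, for a hyaluronan receptor, rose less (0.51, adjusted p = 0.0343), and was not called without Asrij high replicate 1 or 3 (adjusted p = 0.172 and 0.183), without Asrij low replicate 1, 2 or 3 (0.0659, 0.0528 and 0.096), under library totals (0.289), upper quartile (0.258) or RLE factors (0.0586), with a filter of 1 CPM in 3 libraries (0.0698), with DESeq2 (0.0527) or with a replicate block (0.0694). A further 11 genes of this list were too low to test, and 3 of them (Cxcl1, Il12b and Csf2) had no count in any library.

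Of 13 genes for nuclear partners of RelA, 4 rose and 2 fell, with a median of 0.25. The deacetylase genes Hdac2 (1.09, adjusted p = 0.00487), Hdac1 (0.96, adjusted p = 0.00569) and Hdac3 (0.71, adjusted p = 0.0295) rose. Pdlim2, for a ubiquitin ligase of nuclear RelA, fell (-1.57 ± 0.31, adjusted p = 0.00409), and so did Socs1 (-1.79, adjusted p = 0.0491). Hdac3 was not called without Asrij high replicate 1 or 3 or Asrij low replicate 3 (adjusted p = 0.0899, 0.088 and 0.0564), or under library totals (0.185) or upper quartile factors (0.118). Socs1 was not called without Asrij high replicate 1 or 3 or Asrij low replicate 1, 2 or 3 (adjusted p = 0.11, 0.113, 0.0665, 0.0804 and 0.12), and was at -2.39 without Asrij high replicate 2.

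**Figure D4:**
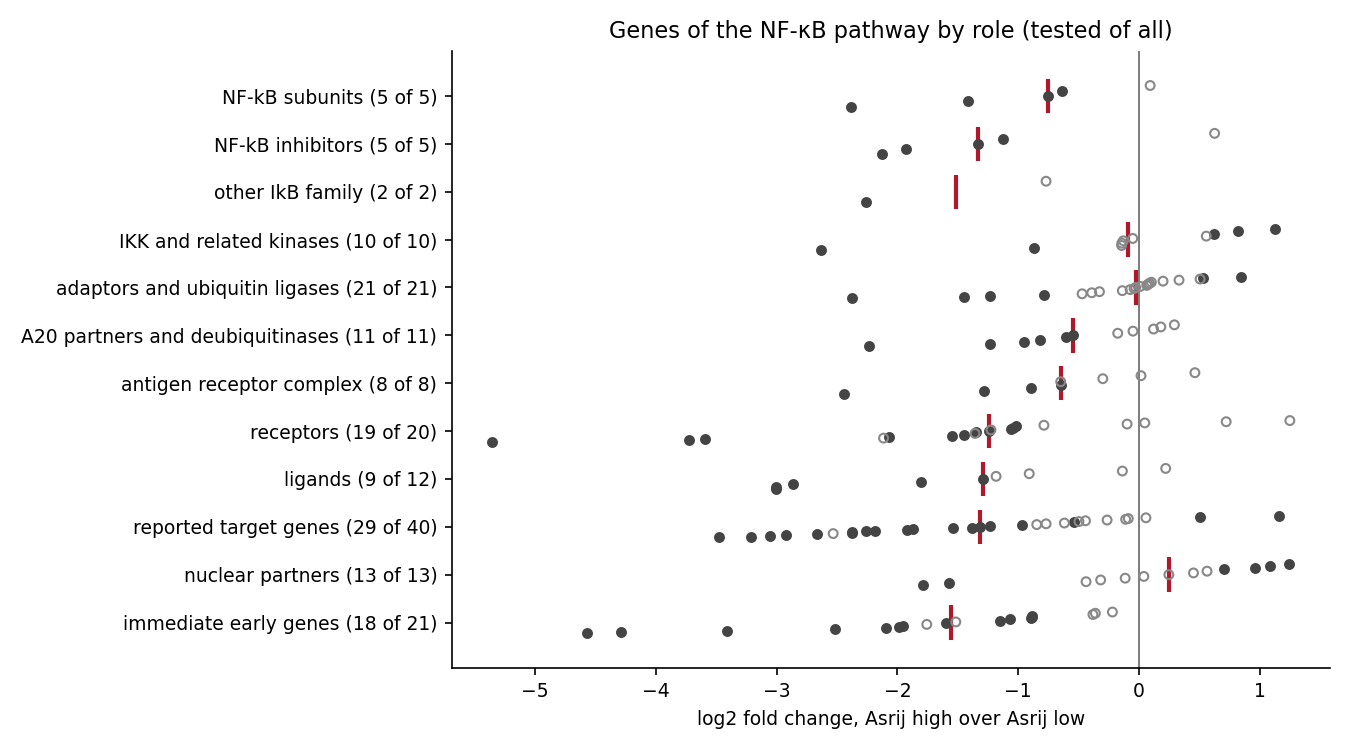
Log2 fold change, Asrij high over Asrij low, of each tested gene in the lists by role, with filled points for an adjusted p under 0.05, open points for the others and red bars for list medians. The medians of receptors, ligands and reported target genes lie between -1.24 and -1.32, and those of kinases and adaptors at -0.09 and -0.03.

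Sums of B cell, stromal, endothelial, erythroid and early response lists were lower in every Asrij high library than in any Asrij low one. Neutrophil sums were higher in every Asrij high library, and the sums of the other cell types below overlapped. Of 10 B cell markers 7 fell, and their summed level ran from 7.92 to 12.8 CPM in Asrij high and from 66.6 to 114 CPM in Asrij low. All 12 stromal markers fell, with sums of 41.1 to 127 CPM in Asrij high and 372 to 1011 CPM in Asrij low, and 3 of 8 endothelial markers fell, with sums of 49.1 to 119 CPM in Asrij high and 227 to 374 CPM in Asrij low. No marker in these 3 lists was at 0 in a whole group. Of 12 macrophage and monocyte markers 7 fell and 1 rose, and the sums overlapped, from 116 to 141 CPM in Asrij high and from 93.4 to 290 CPM in Asrij low, the highest being Asrij low replicate 3. In that library Nfkbiz, Nfkb2, Rel, Nfkbia, Nfkbie and Il1b were also highest, whereas Nfkb1, Rela, Nfkbib and Tnfaip3 were the lowest of the Asrij low group. The B cell, stromal, endothelial, erythroid and early response sums were highest there too. Its HSC, megakaryocyte and T and NK cell sums were the lowest of the Asrij low group. Dendritic cell sums overlapped too (80.6 to 92.1 CPM in Asrij high and 79.7 to 111 CPM in Asrij low), with 2 of 5 tested markers lower, 1 higher and Xcr1 at 0 in both groups, as did those of plasma cell markers (47.9 to 57.1 CPM in Asrij high and 54.4 to 62.8 CPM in Asrij low, with 2 of 6 tested markers lower and Tnfrsf17 at 0 in Asrij high) and of T and NK cell markers (31.8 to 70.1 CPM in Asrij high and 46.1 to 63.8 CPM in Asrij low, with 3 of 6 tested markers lower and Trac at 0 in Asrij low). Of the 18 tested early response genes, which cell dissociation can raise, 13 fell, with sums over the list of 170 to 198 CPM in Asrij high and 378 to 547 CPM in Asrij low. Of 12 neutrophil markers 4 rose and 2 fell, and of 12 erythroid markers 5 rose and 5 fell. Neutrophil markers had sums of 4231 to 7203 CPM in Asrij high and 890 to 3649 CPM in Asrij low, erythroid markers 5353 to 9436 CPM in Asrij high and 11243 to 81218 CPM in Asrij low, and megakaryocyte markers 335 to 1065 CPM in Asrij high and 513 to 781 CPM in Asrij low. The part of other cells, of the fall in HSC genes and of early response in the values of the NF-κB genes was not tested.

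**Figure D5:**
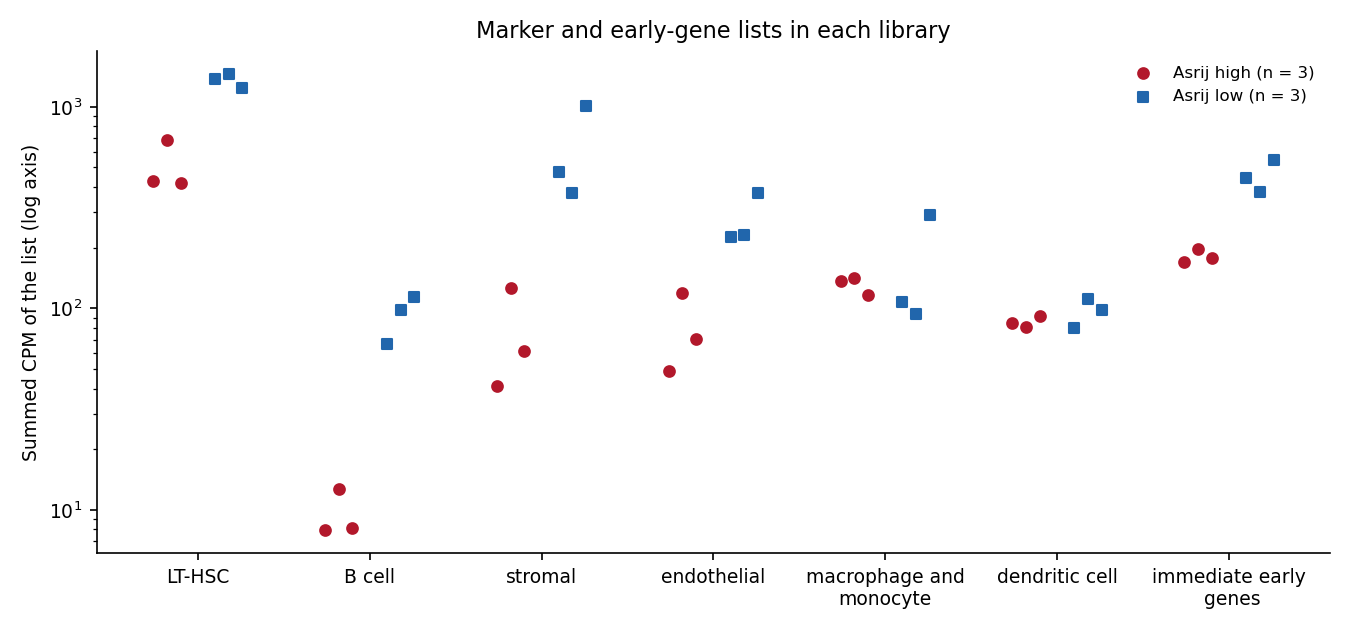
Summed CPM of marker lists and of the early response list in each library on a log axis, with Asrij high libraries as circles left of the Asrij low libraries as squares. The groups do not overlap for HSC, B cell, stromal, endothelial and early response lists, and overlap for the macrophage and dendritic cell lists. Neutrophil, erythroid, megakaryocyte, plasma cell and T and NK cell lists are not drawn.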

How the data were processed

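RNA from sorted long-term HSCs was depleted of ribosomal RNA and made into directional libraries, per the labels' protocols, although the labels name polyA RNA as the molecule. The deposited table holds raw, unnormalized counts per gene symbol. The submitters' processing notes name HISAT2, Subread, SAMtools, FastQC and the build mm10. Tool versions, the annotation and how strand and multiply mapping reads were handled are not stated there. Columns were tied to samples by the library name in the labels.

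The counts were fitted whole in R 4.3.3 with edgeR 4.0.16 (TMM factors, robust quasi-likelihood, group as the only term) after filterByExpr (minimum count 10, minimum total 15). DESeq2 1.42.0, limma-voom (limma 3.58.1), other scalings and filters, each library left out and a replicate block were alternatives. SEs of log2 fold changes derive from the quasi-likelihood statistic. The genes and lists were chosen with earlier results of these data known. All 274 list symbols were found, 273 as written. Named pathway genes are the up to 4 lowest p-values per list among calls with a mean of at least 1 CPM. Tab1, Tank, Azi2, Il18, Hdac3, Socs1, Cd44, Tnfrsf1a, Tnf, Ikbkb, Ikbkg, Nfkbid, the overlapping genes and the targets without a count were named after their values were seen. Some genes that the naming rule selects are not reported here. Exon lengths are from GENCODE M21 (GRCm38). Libraries within a group differed by more than counting noise (82.5 to 183 chi-square units per degree of freedom). Scripts were checked on simulated counts. There 14 of 97 genes changed 2-fold and 52 of 98 changed 4-fold were recovered, and 8 of 20586 unchanged genes were called. Far fewer genes were changed there than were called in the data, so these recovery rates need not hold for the data. Genes that did not pass the test may still differ.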

Additional observations from a re-analysis of the deposited data

How the results depend on the processing

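The 8 falls among the NF-κB genes held in all 15 alternatives except for Nfkb1, which lost its call in 4 of the 6 fits without 1 library, so that 7 or 8 genes were called lower. The count called higher was 1 with DESeq2 and 1 without a filter on low counts, Nfkbib in both (log2 0.58 and 0.70). Rela changed sign to -0.18 with library totals and with upper quartile factors, to -0.029 with a filter of 1 CPM in 3 libraries and to -0.12 when Asrij high replicate 2 and Asrij low replicate 3 were dropped together, and lay between -0.019 and 0.22 with 1 library left out. It was not past the threshold in any of them. Library totals and upper quartile factors moved the median of all genes by -0.27 and limma-voom by 0.11. The count of all genes called was 4655 higher and 3797 lower, and 3270 higher and 4856 lower under library totals and 3447 and 5192 under upper quartile factors. The lower count lay between 2346 (without Asrij high replicate 1) and 3752 with 1 library left out. The 11 pathway genes called higher became 5 under library totals and 5 under upper quartile factors, and 5 to 12 with 1 library left out. Same-numbered libraries of the 2 groups correlated at 0.0126, 0.046 and 0.225 in their deviations from group means. Libraries with unlike numbers correlated at -0.158 to 0.0997. Whether the numbers pair the samples cannot be decided from these values, and the labels do not say. With a replicate block 8 of the 10 genes were called lower and 8088 genes in all, and not every library correlated best with its own number. Of the pathway genes named, Azi2 and Cd44 lost their calls under the block. The Asrij low libraries were shallower than all Asrij high ones, so genes at a few counts are less precise there.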
